A study of Mus musculus with 6 samples.

Results

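Complement is a set of plasma and cell-surface proteins that tag microbes and damaged cells, draw in immune cells and can open pores in membranes. It starts through antibody-bound C1 (classical pathway), through sugar-binding lectins (lectin pathway) or on surfaces where C3 turns over by itself (alternative pathway). All routes meet at C3, whose cleavage labels the surface and frees small peptides that act on receptors, and inhibitors hold each step in check on the body's own cells. The liver makes much of the complement in plasma. In the lung, alveolar epithelial cells and macrophages also make components of it.

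The genes described here are C1qa, C1qb, C1s, C2, C3, Cfb, Cfp, C3ar1 and Serping1, taken by name as 9 complement genes of the 18138 gene symbols on the array. Every probe carrying one of these symbols was used, which gave 10 of the 25697 probes. They were compared between lungs of hSRY-ON and hSRY-OFF mice, with 3 male FVB mice (FVB/N in the methods) at postnatal day 6 and 1 array per mouse in each group. In hSRY-ON mice, FLAG-tagged human SRY and EGFP were expressed from a single-copy transgene under the broadly active CAG promoter, after Cre recombinase from the egg of a Ddx4-Cre mother had removed DsRed2 in the single-cell embryo. The hSRY-ON mice chosen for the arrays had not inherited the Ddx4-Cre transgene. The name hSRY-OFF is given by the study to mice with the unrecombined transgene, whereas it calls littermates without that transgene controls, so the genotype of the comparison mice rests on their label. The transgenic mice come from 1 integration site, and the pups of this model are described as growing poorly and lacking milk. The study also describes smaller air sacs and thicker septa in the lungs of newborn hSRY-ON pups, and fat in the liver. Some hSRY-ON pups died before day 6, so the arrays are of pups that lived to that age.

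Intensities were corrected for background, normalized between arrays and put on a log2 scale, on which a difference of 1 is a 2-fold change. A probe was kept for testing where its detection p, the share of negative control probes that were brighter, was under 0.05 on at least 3 of the 6 arrays. This left 13841 probes. Between 13191 and 14134 probes were detected per array, and precision is limited by the number of arrays. The median SD of a kept probe was 0.13 in hSRY-OFF and 0.22 in hSRY-ON, so the hSRY-ON lungs varied more. No probe measured the human transgene. All 8 lung epithelial marker genes examined, among them Sftpc, Sftpb and Scgb1a1, were detected on all 6 arrays.

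Of the 10 complement probes, 8 were detected on all 6 arrays and tested, for 7 of the 9 genes. The probes of Cfb and C3ar1 were not detected on any array. Among the 8 tested probes, 5 were higher in hSRY-ON lungs at an adjusted p under 0.05 and none was lower (limma, two-sided, Benjamini-Hochberg adjustment over all 13841 probes). At an unadjusted p under 0.05 the count was 6 higher and 0 lower, where 19.6% of all tested probes were higher and 21.4% lower. At the adjusted threshold, 26.9% of tested probes over the whole array were called, 13.6% higher and 13.3% lower. The 5 were C1qa, C2, C3, Cfp and Serping1. Every hSRY-ON array lay above every hSRY-OFF array for 5 of the 8 tested probes, and for 22.4% of all tested probes. The reverse order held for none of the 8 and for 24.1% of all, so that the groups were separate for 46.6% of all. The 5 separate probes were the 5 called ones, and a called probe tends to be separate, so this adds little to the calls. The median log2 change of the 8 probes was 0.81, against -0.03 for all tested probes. The 9 genes were chosen with earlier results of these data known, so these comparisons describe the set and do not test for enrichment. Only C2 and C3, 2 of the 8 probes, were both called and changed at least 2-fold, which applied to 9.7% of all tested probes.

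**Figure D1:**
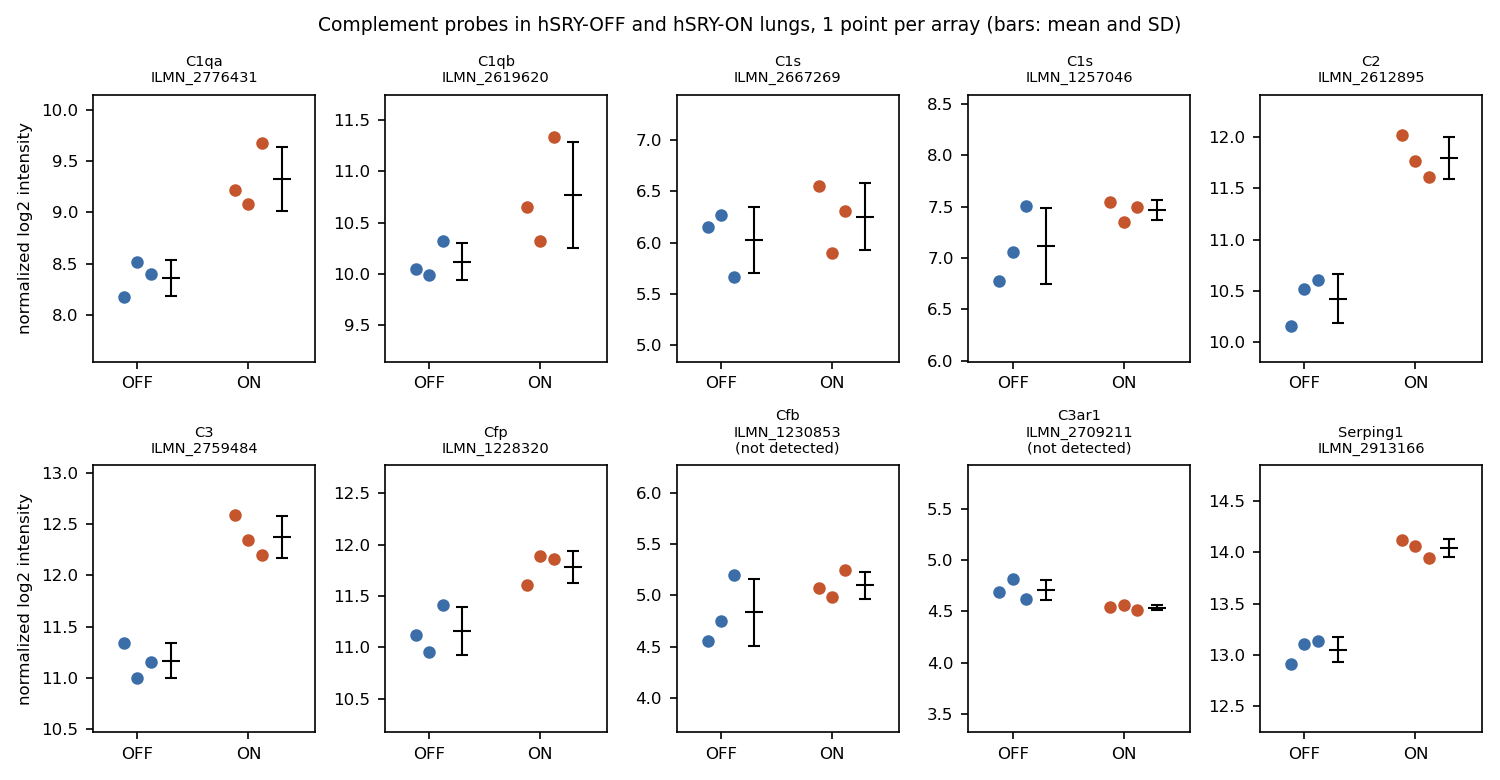
Normalized log2 intensity of the 10 complement probes in 3 hSRY-OFF (blue) and 3 hSRY-ON (orange) lungs, 1 point per array, with the mean and SD of each group in black. Each panel spans the same log2 range. The groups are separate for C1qa, C2, C3, Cfp and Serping1 and overlap for C1qb and both C1s probes, and Cfb and C3ar1 lie at background.

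C1q, the recognition part of C1, is assembled from chains encoded by C1qa, C1qb and C1qc, and tissue macrophages are its main source. C1qa (ILMN_2776431) had log2 intensities of 8.17, 8.52 and 8.40 on the hSRY-OFF arrays and 9.22, 9.08 and 9.68 on the hSRY-ON arrays, each in the order of replicates 1 to 3. The hSRY-ON replicate 3 stood highest, and the groups did not overlap. Its log2 level rose by 0.96 (standard error, SE, 0.19, limma, adjusted p = 0.0114), a 1.95-fold change. The call was lost without hSRY-OFF replicate 1, where the change was 0.87 (limma, adjusted p = 0.0509).

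C1qb (ILMN_2619620) had values of 10.05, 9.99 and 10.32 in hSRY-OFF and 10.65, 10.32 and 11.33 in hSRY-ON. Again hSRY-ON replicate 3 stood apart, and hSRY-ON replicate 2 lay level with the highest hSRY-OFF array. The log2 change of 0.65 (SE 0.26, 95% confidence interval 0.04 to 1.26) did not pass the threshold (limma, adjusted p = 0.103). It passed with median scaling of the arrays (limma, adjusted p = 0.0459), and was 0.37 without hSRY-ON replicate 3.

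C1qc, which is no member of the set of 9, was at 10.01, 10.03 and 10.35 in hSRY-OFF and 10.89, 10.65 and 11.62 in hSRY-ON. It rose by 0.93 on the log2 scale (limma, adjusted p = 0.0368), and lost its call whichever hSRY-OFF array was left out (adjusted p = 0.0654 to 0.118). The 3 chains therefore had their highest value on the same array. Whether their changes differed was tested on the log2 difference between chains within each array. The change of C1qa exceeded that of C1qb by 0.31 (exact permutation test, two-sided, p = 0.20), that of C1qc exceeded that of C1qb by 0.28 (p = 0.10) and that of C1qa exceeded that of C1qc by 0.04 (p = 1). With 3 against 3 arrays this exact permutation test cannot give a p below 0.1, and after adjustment over the 3 pairs the smallest p was 0.30. The log2 difference of C1qc and C1qb averaged 0.01 over the hSRY-OFF arrays (SD 0.05) and 0.28 over the hSRY-ON arrays (SD 0.05). This pair is given because it had the smallest p, and the test did not show that its chains changed differently. In the RefSeq gene table the 3 genes are direct neighbours, with C1qc between C1qa and C1qb.

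C1s is the protease that C1q activates and that cleaves C4 and C2. Its probe ILMN_1257046 had values of 6.77, 7.06 and 7.51 in hSRY-OFF and 7.55, 7.35 and 7.50 in hSRY-ON, and its probe ILMN_2667269 had values of 6.15, 6.27 and 5.66 against 6.55, 5.90 and 6.30. On both probes the groups overlapped. The log2 changes of 0.35 (95% confidence interval -0.11 to 0.81) and 0.23 (-0.30 to 0.76) did not pass (limma, adjusted p = 0.216 and 0.483). These intervals leave room for a rise of over 1.5-fold. The symbol C1s is an older name of C1s1, which has a closely related copy, C1s2. The probe sequences were not analysed here, so signal of these copies could not be told apart.

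C2, cleaved by C1s, supplies the catalytic part of the classical and lectin C3 convertase. Its probe (ILMN_2612895) had values of 10.15, 10.52 and 10.60 in hSRY-OFF and 12.02, 11.77 and 11.61 in hSRY-ON. The lowest hSRY-ON array lay about 1 log2 unit above the highest hSRY-OFF array. The rise of 1.37 (SE 0.17) was the largest among the 8 tested probes, a 2.58-fold change (limma, adjusted p = 0.00288). Over 16 alternative settings, arrays left out included, the change lay between 1.23 and 1.54 and the call held in all of them.

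C3 is the component at which the pathways meet, and its fragments mark surfaces and act as inflammatory peptides. The C3 probe (ILMN_2759484) gave 11.34, 11.01 and 11.15 in hSRY-OFF and 12.59, 12.34 and 12.19 in hSRY-ON lungs. The groups were separate and both were tight. C3 rose by 1.21 on the log2 scale (SE 0.15), a 2.31-fold change (limma, adjusted p = 0.00301). The change lay between 1.10 and 1.40 over the 16 alternatives, and none of them removed the call.

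Cfp encodes properdin, which stabilises the alternative pathway convertase and is made mainly by myeloid cells. Its probe (ILMN_1228320) had values of 11.12, 10.95 and 11.41 in hSRY-OFF and 11.60, 11.89 and 11.85 in hSRY-ON. The groups were close, with hSRY-ON replicate 1 just above hSRY-OFF replicate 3. The rise of 0.62 (SE 0.16), a 1.54-fold change, passed the threshold (limma, adjusted p = 0.0284). It was the least stable of the 5 calls. It was lost without hSRY-OFF replicate 1 (adjusted p = 0.10), hSRY-OFF replicate 2 (adjusted p = 0.106), hSRY-ON replicate 2 (adjusted p = 0.0805) and hSRY-ON replicate 3 (adjusted p = 0.0600), although its change stayed between 0.52 and 0.80 over all alternatives.

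Promoter sequences were searched for letters that some known regulators bind. Of the 9 genes, 5 had an entry in the RefSeq promoter table (build GRCm38.p6), namely C3, C1qb, C1s (as C1s1), C3ar1 and Cfp. C1qa, C2, Cfb and Serping1 had none, so whether the 5 called genes share such letters could not be shown. The 250 bases before the start site are given for C3 and Cfp, the called genes with an entry, and for C1qb, which was not called. They run 5′ to 3′ on the strand of the gene, here the minus strand for all 3, at chr17:57228137-57228386 for C3, chrX:20931556-20931805 for Cfp and chr4:136886201-136886450 for C1qb. Capitals mark a match to one of the motifs named after the sequences.
C3: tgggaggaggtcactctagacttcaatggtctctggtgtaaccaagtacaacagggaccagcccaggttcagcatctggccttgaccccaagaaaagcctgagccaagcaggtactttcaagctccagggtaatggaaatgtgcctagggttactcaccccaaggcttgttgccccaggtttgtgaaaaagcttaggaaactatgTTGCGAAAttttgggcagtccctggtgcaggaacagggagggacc
Cfp: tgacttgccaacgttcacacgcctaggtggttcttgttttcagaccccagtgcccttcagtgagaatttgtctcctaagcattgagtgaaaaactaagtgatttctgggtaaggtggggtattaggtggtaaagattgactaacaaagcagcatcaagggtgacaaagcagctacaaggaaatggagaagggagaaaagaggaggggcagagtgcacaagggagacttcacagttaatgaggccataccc
C1qb: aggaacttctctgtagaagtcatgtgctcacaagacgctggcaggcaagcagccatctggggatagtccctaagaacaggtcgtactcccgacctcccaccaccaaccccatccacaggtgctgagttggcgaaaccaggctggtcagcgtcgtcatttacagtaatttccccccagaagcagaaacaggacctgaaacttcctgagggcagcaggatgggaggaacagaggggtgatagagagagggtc

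Both strands were searched for the letters GGGNNTTTC (NF-kB), TTCNNNGAA (STAT factors), TTGCNNAA (C/EBP factors), GAAANNGAA (interferon response), AACAAT (the core bound by SRY and SOX factors) and GAGGAAG (PU.1, a myeloid factor), where N is any base. The window of C3 held 1 match, to the C/EBP letters, from 45 to 38 bases before the start. The windows of Cfp and C1qb held none. Among the uncalled genes whose windows are not printed, C1s1 held 1 match to the C/EBP letters in 1 of its 2 windows, and C3ar1 held 1 match to those of NF-kB. Such short letters are common. Of 32851 promoter windows of this length, 9.56% held the C/EBP letters, 3.72% those of NF-kB, 7.02% those of STAT factors, 7.13% those of the interferon response, 9.42% the SRY and SOX core and 10.6% those of PU.1. A match is a description of the sequence and no evidence of binding, and a missing match says only that these letters are not in the window.

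Cfb supplies the protease of the alternative pathway convertase, the counterpart of C2. Its probe (ILMN_1230853) had deposited intensities of 145.5, 150.3 and 189.4 in hSRY-OFF and 169.2, 160.0 and 178.4 in hSRY-ON, with detection p between 0.066 and 0.744. Cfb is the direct neighbour of C2 in the RefSeq gene table, and the array has 1 probe for each. The probe of C2 was detected on all arrays and that of Cfb on none, so only C2 could be compared. C3ar1 encodes the receptor of the C3a peptide. Its probe (ILMN_2709211) read 153.2, 152.6 and 161.6 in hSRY-OFF and 145.2, 141.8 and 145.7 in hSRY-ON, also not above background. No fold change is given for either gene, and an undetected probe does not show that the transcript is absent.

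Serping1 encodes the C1 inhibitor, a serpin that blocks C1r and C1s and also proteases of the lectin and contact systems. Its probe (ILMN_2913166) had values of 12.91, 13.11 and 13.14 in hSRY-OFF and 14.12, 14.06 and 13.94 in hSRY-ON. Within each group the arrays were nearly alike, with SDs of 0.12 and 0.09. Serping1 rose by 0.99 on the log2 scale (SE 0.12), the smallest error of the 8 probes, a 1.98-fold change (limma, adjusted p = 0.00281). The call held under all 16 alternatives. The change depended on the scaling of the arrays, at 1.30 with median scaling, and lay between 0.92 and 1.30 over all settings.

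**Figure D2:**
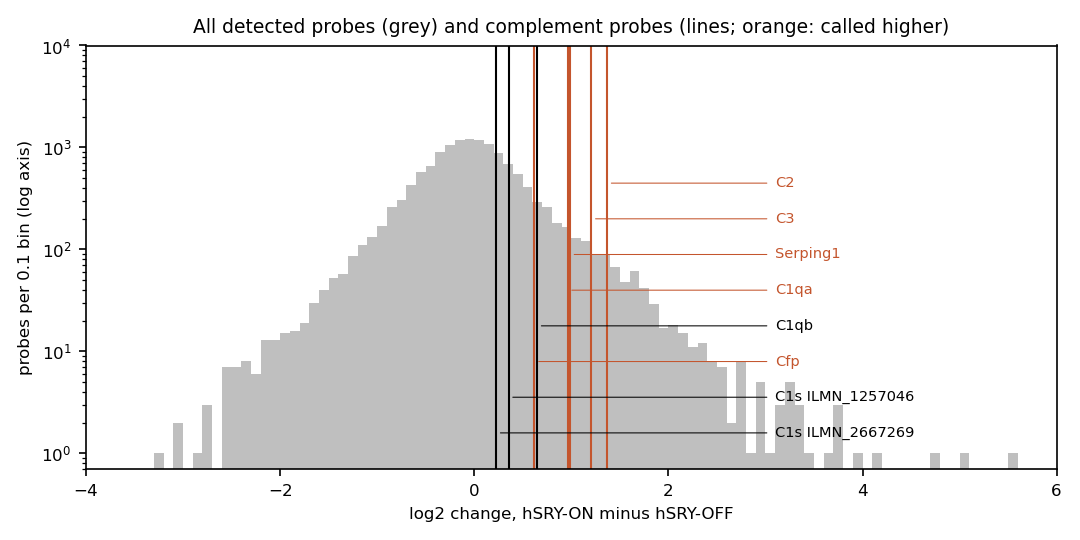
Distribution of the fitted log2 change (hSRY-ON minus hSRY-OFF) over the 13841 tested probes in bins of 0.1, in grey with the number of probes on a log axis. Vertical lines mark the 8 tested complement probes, orange where called higher. All 8 lie above 0, from 0.23 for a C1s probe to 1.37 for C2, within a distribution that reaches beyond 5.

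The 5 called genes differed in which array was highest. C2, C3 and Serping1 were highest on hSRY-ON replicate 1 and lowest among the hSRY-ON arrays on replicate 3. C1qa was highest on replicate 3, as were C1qb and C1qc, and Cfp on replicate 2. With 3 arrays a group these orders are a description of these mice. To describe likeness over the 6 arrays, the mean of each probe was subtracted and the root mean square distance between profiles was taken. Among the member probes the closest pair was C3 and Serping1, at 0.21 log2 units, followed by C2 and Serping1 at 0.22. Over all tested probes, those closest to C3 were Peg3 (0.09), Slc16a11 (0.09) and Itgb4 (0.10), and those closest to C1qa were 1700120B06Rik (0.07), the complement gene C4b (0.09) and Sult5a1 (0.10).

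The wider pathway was read from lists of 46 further complement genes, with the kept probe of highest mean standing for each gene. Of these, 43 were on the array and 21 were detected well enough to be tested. Among the 21, 5 were called higher and 2 lower in hSRY-ON (limma), against 13.6% and 13.3% of all tested probes, and their median log2 change was 0.26. The lists, too, were chosen with earlier results of these data known. The counts depended on single arrays. They were 2 higher and 1 lower without hSRY-OFF replicate 1, 3 and 1 without hSRY-OFF replicate 2, 3 and 1 without hSRY-OFF replicate 3, and 7 and 4 without hSRY-ON replicate 1.

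**Figure D3:**
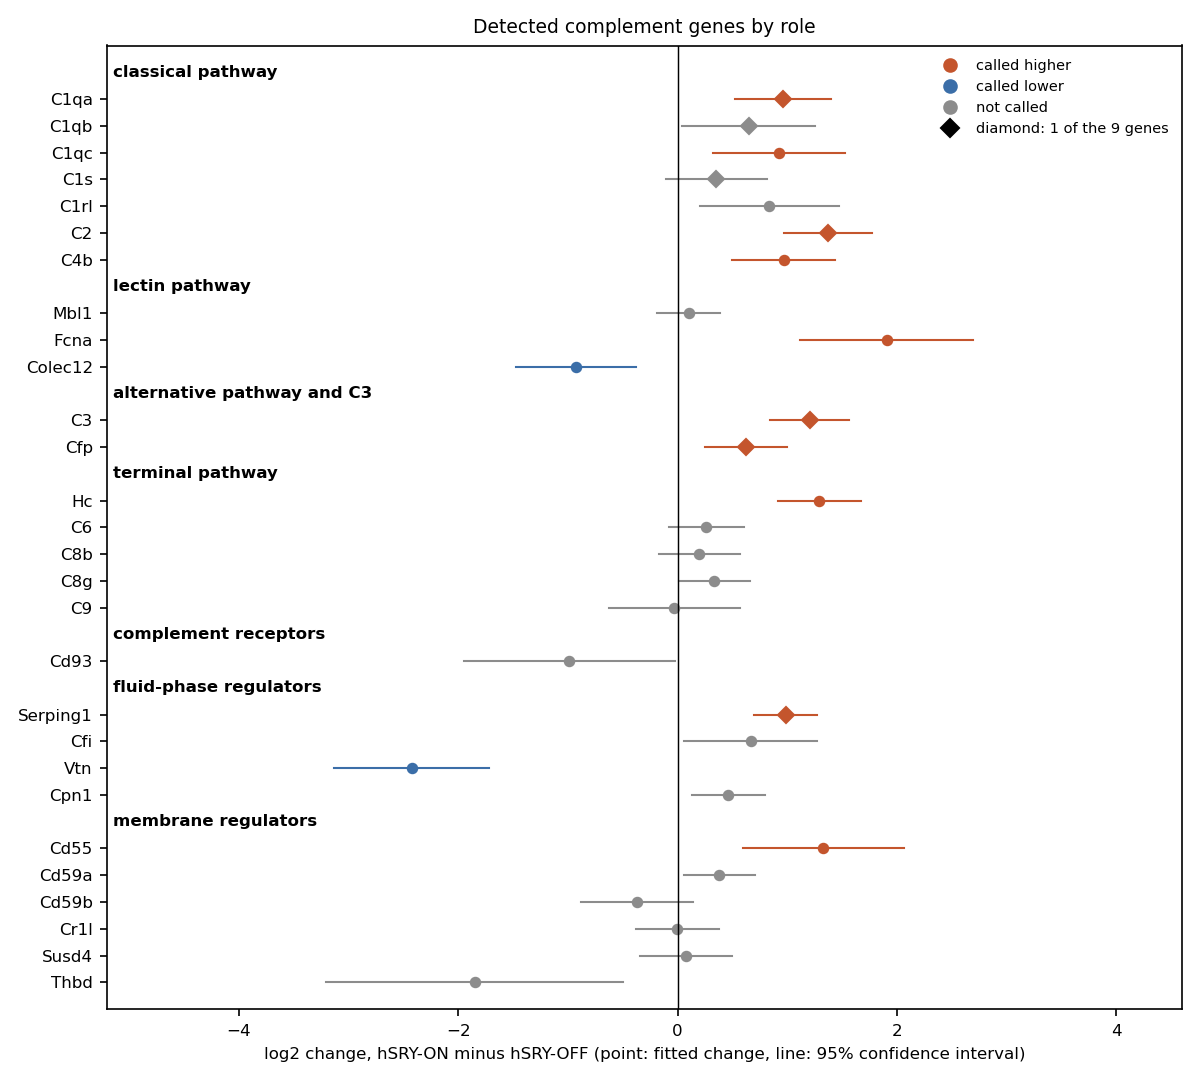
Fitted log2 change (hSRY-ON minus hSRY-OFF) with its 95% confidence interval for the 28 complement genes tested, grouped by role, with diamonds for genes of the set of 9. Orange marks genes called higher, blue genes called lower and grey genes not called. All 7 classical pathway genes lie above 0, while lectins and regulators hold genes on both sides.

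In the classical pathway, C4b was called higher, as were C1qa, C1qc and C2. C4b encodes complement C4, which forms the convertase with C2, and had values of 8.18, 8.52 and 8.44 in hSRY-OFF and 9.08, 9.22 and 9.74 in hSRY-ON. The change of C4b was 0.97 (SE 0.20, limma, adjusted p = 0.0138), and the call was lost without hSRY-OFF replicate 1 (adjusted p = 0.0599). C4a has a near-identical sequence and its probe was not detected, so signal of both copies may not be separated. C1rl, a protease related to C1r, had a change of 0.84 that did not pass (adjusted p = 0.0579), and the probe of C1r itself was not detected. Of the 7 tested classical pathway genes, 4 were called higher and 0 lower, against 13.6% and 13.3% of all tested probes. Their median log2 change was 0.93, against -0.03 for all tested probes. The 4 include C1qa and C2, which were already counted among the calls of the 9 genes.

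In the lectin pathway, Fcna and Colec12 moved in opposite directions. Fcna, which encodes the macrophage lectin ficolin A, had values of 7.86, 7.33 and 8.57 in hSRY-OFF and 9.54, 9.65 and 10.28 in hSRY-ON, and rose by 1.91 (SE 0.34, limma, adjusted p = 0.00844). Colec12, a scavenger receptor of the collectin family, fell by 0.93 (limma, adjusted p = 0.0275). The call of Colec12 was lost without any 1 of the arrays other than hSRY-ON replicate 3 (adjusted p = 0.0501 to 0.0994), and its change was -0.53 without background correction. Mbl1 changed by 0.10 and did not pass (adjusted p = 0.570). Masp1, Masp2 and Mbl2 were not detected on any array.

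In the alternative pathway, Cfd, which encodes the protease adipsin that cleaves factor B, was detected on 1 array of each group and was not tested. In the terminal pathway, which builds the membrane pore, Hc rose and the others did not pass. Hc encodes C5, the component from which the pore starts, and had values of 7.58, 7.21 and 7.39 in hSRY-OFF and 8.74, 8.88 and 8.44 in hSRY-ON. Its rise of 1.29 (SE 0.16) was a 2.45-fold change (limma, adjusted p = 0.00287), and was 0.84 without background correction. This is a change of RNA, and whether these mice made C5 protein was not measured. The other 4 tested genes of this pathway had changes between -0.03 and 0.33. The receptor genes were mostly below detection. Of 9 genes listed as receptors, C3ar1 included, only Cd93 was tested, with a change of -0.99 and a wide spread in hSRY-ON (SD 0.90, limma, adjusted p = 0.115). Whether Cd93 acts as a complement receptor was not examined here. Vsig4, a macrophage receptor for C3 fragments, reached detection on 2 arrays, both hSRY-ON, and was not tested.

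Among the regulators, Cd55 rose, Vtn fell and most others did not pass. Cd55 encodes decay-accelerating factor, which dismantles C3 convertases on cell surfaces. Its values were 6.39, 6.51 and 6.67 in hSRY-OFF and 8.60, 7.60 and 7.35 in hSRY-ON, a rise of 1.33 (SE 0.31, limma, adjusted p = 0.0215). The call was lost without each hSRY-OFF array (adjusted p = 0.0552 to 0.0793), and the change was 0.70 without background correction. Vtn encodes vitronectin, an adhesive protein that keeps the terminal complex out of membranes. It was at 7.92, 7.98 and 7.67 in hSRY-OFF and 5.75, 4.71 and 5.83 in hSRY-ON, with 2 of the 3 hSRY-ON arrays detected, and fell by 2.42 (SE 0.30, limma, adjusted p = 0.00280). The size of this change depended on the background step, at -1.04 without background correction, where the call held.

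Other regulators lay near the threshold. Cpn1, which encodes a subunit of the carboxypeptidase that inactivates C3a and C5a, had a change of 0.46 (adjusted p = 0.0502). Thbd, which encodes thrombomodulin, had a change of -1.85 (adjusted p = 0.0522), with hSRY-ON values of 8.41, 6.04 and 6.28, and passed under 9 of 16 alternatives, among them array weights (adjusted p = 0.0127), median scaling (0.0282), no background correction (0.0283) and leaving out hSRY-ON replicate 1 (9.67e-04). The membrane pore inhibitor Cd59a changed by 0.38 (adjusted p = 0.0787) and factor I (Cfi), which cleaves C3b, by 0.67 (adjusted p = 0.0957). The membrane regulator Cr1l, named Crry on the array, had a change of -0.0023 (95% confidence interval -0.38 to 0.38), with a sign that turned under 6 alternatives.

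Several cell types can make these transcripts, so their markers were read on the same arrays. In whole lung RNA, more cells of a type and more RNA per cell cannot be told apart. Of 12 macrophage markers, 11 were on the array and 10 were tested, 6 were called higher and 0 lower, with a median log2 change of 0.93. Of all tested probes, 13.6% were called higher and 13.3% lower. Marco, a scavenger receptor, rose by 2.56, Mertk, a receptor for dying cells, by 1.78 and Cd14 by 1.74 (limma, adjusted p = 0.00642, 0.00196 and 0.0103). Adgre1 (Emr1 on the array) and Csf1r, both defining macrophage genes, had changes of 0.09 and 0.41 and did not pass (adjusted p = 0.826 and 0.305). The summed normalized intensity of the 10 markers ranged from 24867 to 27005 in hSRY-OFF and from 35701 to 44115 in hSRY-ON. Lyz2 alone made up 70.8% to 86.4% of this sum. Without Lyz2 the sum of the other 9 ranged from 3675 to 3909 in hSRY-OFF and was 7353, 12872 and 8169 on hSRY-ON replicates 1 to 3. Among the hSRY-ON arrays, 7 of the 10 markers were highest on replicate 2, 2 on replicate 1 (Marco and Adgre1) and 1 on replicate 3 (Csf1r), whereas the 3 C1q chains were highest on replicate 3. Without background correction the change of Marco was 1.17, and leaving out hSRY-OFF replicate 2 or hSRY-ON replicate 1 turned the sign of the small change of Adgre1. The part of these markers in the changes of C1qa, C1qc, Cfp and Fcna was not tested.

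**Figure D4:**
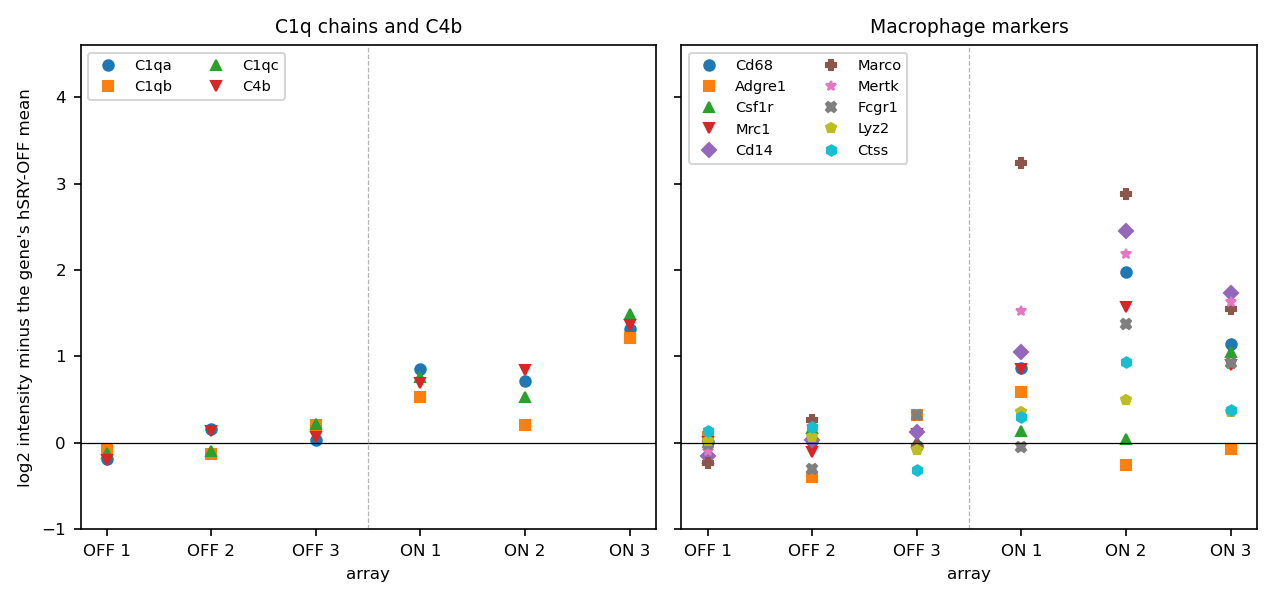
Log2 intensity of the C1q chains and C4b (left) and of the 10 tested macrophage markers (right) on each array, relative to the mean of the same gene over the hSRY-OFF arrays. The C1q chains and C4b are highest on hSRY-ON replicate 3, whereas most macrophage markers are highest on hSRY-ON replicate 2, with Marco and Emr1 highest on replicate 1 and Csf1r on replicate 3.

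Some neutrophil markers also moved. Of 8, 6 were tested, 3 were called higher and 0 lower, against 13.6% and 13.3% of all tested probes. The 3 were S100a8, S100a9 and Ltf, with log2 changes of 1.48, 1.81 and 2.36 (limma, adjusted p = 0.0272, 0.0410 and 0.0122). The calls of S100a8 and S100a9 were lost without each hSRY-OFF array (adjusted p = 0.0709 to 0.0866 and 0.0899 to 0.120), that of S100a8 also without hSRY-ON replicate 2 (0.0621), and that of Ltf without hSRY-OFF replicate 2 (0.0510). Without hSRY-ON replicate 3 the change of S100a9 was 1.14. Camp, Ngp and Csf3r had changes of 1.01, 1.03 and 0.43 that did not pass, and Elane was not detected on any array. On hSRY-ON replicate 1, Camp (6.70) and Ngp (6.19) lay below every hSRY-OFF array (7.10 to 7.81 and 7.18 to 7.61). On hSRY-ON replicate 3 they were at 10.25 and 10.57. The summed intensity of the 6 ranged from 4691 to 5324 in hSRY-OFF and from 8482 to 30097 in hSRY-ON, and S100a8 made up 65.0% to 77.9% of it. Each of the 6 markers was highest on hSRY-ON replicate 3 among the hSRY-ON arrays. Neutrophils store properdin, and their part in the change of Cfp was not tested.

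The liver is the main source of plasma C3, C2, C4 and C5, so hepatocyte genes were read as well. Alb, Ttr, Fgb and Tat were not detected on any array. Ahsg, Fga and Apoa1 were detected on all 3 hSRY-ON arrays and on no hSRY-OFF array. Their hSRY-ON means lay 3.98-fold, 3.30-fold and 2.15-fold above the lowest detected signal of the hSRY-OFF arrays. These folds depend on the background step and are no lower limits. The 3 genes passed the filter through the hSRY-ON arrays alone, so their number says nothing by itself. Without background correction their fitted log2 changes were 0.83, 0.79 and 0.53. Their summed intensity was 83.4 to 97.2 in hSRY-OFF and 211.9 to 577.7 in hSRY-ON, with the lowest hSRY-ON value on replicate 2. C3 and C2 on that array lay between the values of the other hSRY-ON arrays. The part of liver transcripts in the changes of C2, C3, C4b and Hc was not tested.

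Complement genes respond to inflammatory signals, so targets of these signals were read from lists. Over the whole array, 13.6% of tested probes were called higher and 13.3% lower. Of 12 genes that respond to NF-kB or interleukin-6, 10 were tested, 5 were called higher and 0 lower, with a median log2 change of 0.65. Lcn2 rose by 1.50, Il1b by 1.19 and Cxcl1 by 0.81 (limma, adjusted p = 0.00958, 0.0101 and 0.0178), and Saa3 rose by 2.76 (adjusted p = 0.0184). The call of Saa3 was lost without each hSRY-OFF array (adjusted p = 0.0579 to 0.0643), and that of Cxcl1 without hSRY-OFF replicate 2 (0.0629) or 3 (0.0607). Without background correction the changes of Il1b and Cxcl1 were 0.74 and 0.46. Socs3 and Icam1 had changes of 0.18 and 0.21 and did not pass, and Il6 was not detected. Of 12 interferon-responsive genes, 10 were tested, 1 was called higher and 0 lower, with a median of -0.04. The 1 was Ifit3, which rose by 2.06 (limma, adjusted p = 0.00464). Irf1 had a change of -0.33 and did not pass (adjusted p = 0.0855).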

How the data were processed

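Total RNA from the lungs of 6 mice (3 hSRY-OFF, 3 hSRY-ON) was hybridised to Illumina MouseRef-8 BeadChips. The authors deposited, per probe and array, an intensity without background correction or normalization, and a detection p-value. The bead summary software is not given in the sources used here. The study's methods name TCC, which models counts, so limma 3.58.1 (R 4.3.3) was used. Detection p-values served to estimate the background (normexp), and quantile normalization followed after an offset of 16. The log2 of these values understates changes of dim probes. Probes detected (p under 0.05) on 3 or more of the 6 arrays were fitted with lmFit and eBayes without covariates. Quantile normalization removes any overall shift between groups. No arrays held identical values.

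The members and lists were chosen with earlier results of these data known. All probes of the 9 genes are named. Of 46 other complement genes, those called and the 5 uncalled with the smallest p are named with statistics, and a few further genes by their value or detection only. Of each context list (macrophage, neutrophil, hepatocyte, adipocyte, fibroblast, lung epithelial, endothelial, interferon, NF-kB and interleukin-6), the 3 with the smallest p and some defining markers are named, and Saa3 was added. A gene of the interferon list that this rule selects is not reported here. Genes were matched by symbol or older symbol. Promoters came from RefSeq. On simulated data for this comparison (14160 probes tested), 17.7% of 2-fold and 66.3% of 3-fold changes were called, none with the wrong sign, and 3.70% of 81 calls were on unchanged probes. Only 96 probes with a 2-fold and 92 with a 3-fold change were tested there, whereas the data gave 3728 calls. The adjusted threshold is stricter where fewer probes change. The simulated spread was taken from intensities before normalization, so it holds brightness differences between arrays as well. For both reasons these shares do not give the share recovered in the data. Alternatives covered background correction, normalization, filter, variance model, replicate block, threshold and leaving out each array, with normalization and filter kept.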

Additional observations from a re-analysis of the deposited data

How the results depend on the processing

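All alternatives were planned. The 5 calls among the 8 member probes stayed between 4 and 6 under each setting other than a stricter threshold, arrays left out aside, and 3 to 5 were called without 1 array (3 without hSRY-OFF replicate 1). An adjusted p under 0.01 left 3 member probes, 3 other complement genes and 1326 probes in all, by construction fewer. Leaving out arrays gave 3 to 11 called genes among the other complement genes (7 in the chosen setting) and 1638 to 4468 of all probes (3728 in the chosen setting). For member probes changed at least 2-fold (2), it gave 2 to 4, and cyclic loess normalization gave 4, since C1qa and Serping1 lie near 2-fold. No member probe changed sign under any alternative. For 46 of the further named genes, 640 of 728 values kept their direction and side of the threshold, 46 lost the call, 34 gained it and 8 changed sign, none of them called. Cr1l was at 0.0014 without background correction, 0.0387 with cyclic loess, 0.0277 with median scaling and -0.0902 to 0.16 without 1 array, and Adgre1 at -0.16 to 0.26 without 1 array. The median change of all probes stayed between -0.04 and 0.02.

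The replicate numbers are shared by both groups, but same-numbered arrays deviated from their group means with correlations of -0.11, 0.10 and -0.09, and 2 of 6 arrays correlated best with their own number, so the numbers do not pair the mice. With the replicate block, 4 member probes, 8 other complement genes and 2655 of all probes were called, and Cfp had an adjusted p of 0.0532 (limma).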

Other observations

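Markers of other lung cells did not share 1 direction (limma). The counts below stand beside 13.6% of all tested probes called higher and 13.3% called lower. Of 6 endothelial markers tested, 3 were called lower and 0 higher, with a median log2 change of -0.44. Tie1 fell by 0.82, Cldn5 by 0.67 and Cdh5 by 0.48 (adjusted p = 0.00421, 0.00947 and 0.0295), and Kdr was not detected. With median scaling neither Cldn5 (-0.35, adjusted p = 0.169) nor Cdh5 (-0.30, 0.219) passed, and Cdh5 was also lost with the replicate block and without any 1 of the arrays other than hSRY-ON replicate 1 (0.0554 to 0.118). Of 6 fibroblast markers, 1 was called higher and 1 lower. Decorin (Dcn) rose by 0.98 and the collagen gene Col1a1 fell by 0.60 (adjusted p = 0.00977 and 0.0494). Col1a1 lost its call under 7 of 16 alternatives (adjusted p up to 0.210), among them leaving out hSRY-OFF replicate 1 or 2 or hSRY-ON replicate 1 or 2. Another collagen gene, Col3a1, had a change of -0.73 that did not pass (adjusted p = 0.0570) and passed under 7 of 16. Of 8 lung epithelial markers, 3 were called higher and 0 lower. They were the surfactant genes Sftpb and Abca3, which rose by 0.67 and 0.60, and the cilium factor Foxj1, which rose by 1.15 (adjusted p = 0.00800, 0.00888 and 0.00647), the last at 0.45 without background correction. The surfactant gene Sftpc had a change of -0.25 that did not pass (adjusted p = 0.150). Every hSRY-ON array of Sftpc lay below every hSRY-OFF array, an order that held for 24.1% of all tested probes. Of the 8 markers, 6 had a positive and 2 a negative change, with a median of 0.32. None of the 5 adipocyte markers passed the filter.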
